A study of Mus musculus with 4 samples.

Results

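The keratins of the basal layer (Krt5, Krt14 and Krt15) and of the spinous layer (Krt1 and Krt10) were followed in single cells of mouse embryonic skin. The members are these 5 genes, found by their symbols among the 56980 genes of the count matrices, and each symbol matched 1 gene. All 5 passed the expression filter in every comparison below. Transcripts of single cells were counted in 4 libraries made from dorsal skin, at E16.5 per the labels, whereas the study's list of litters names an earlier embryonic day for its scRNA-seq litter. Cells were sorted as positive for Epcam, an epithelial surface protein, and α6 integrin, which anchors basal cells to the basement membrane.

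The 2 Ctrl libraries carried floxed Suv39h1, floxed Setdb1 and a deletion of Suv39h2 (Suv39h2-/-), and lacked the K14CreERT2 transgene. The 2 TKO libraries carried the same alleles together with K14CreERT2, and both groups had received Tamoxifen. The loss of Suv39h2 is thus shared by Ctrl and TKO. Suv39h1, Suv39h2 and Setdb1 encode histone methyltransferases, and the H3K9me3 they deposit marks silent chromatin. CreERT2 is a recombinase that acts when tamoxifen is present, and here the promoter of Krt14, a member of the group described, drove it. The animals were of mixed background and each library came from 1 embryo. The study describes the loss of H3K9me3 as often mosaic, and the TKO embryos used for its scRNA-seq as mosaic. With n = 2 per group, the spread given is that between 2 libraries.

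Keratins are the intermediate filament proteins of epithelial cells, and a filament forms only from a type I partner (Krt10, Krt14 or Krt15) with a type II partner (Krt1 or Krt5). Krt5 and Krt14 form the filament network of basal keratinocytes, which divide on the basement membrane. As a cell leaves the basal layer it stops transcribing Krt5 and Krt14 and switches on Krt1 and Krt10, the pair of the spinous layer. Krt15 is a further basal type I keratin that has no type II partner of its own, pairs with Krt5, and is known as a marker of hair follicle stem cells in adult skin.

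The genes lie in the 2 keratin gene clusters of the mouse genome, all on the minus strand (GRCm39, GENCODE vM39). The type II genes are Krt5 (ENSMUSG00000061527, chr15:101615505-101621346) and Krt1 (ENSMUSG00000046834, chr15:101753861-101759229). The type I genes are Krt10 (ENSMUSG00000019761, chr11:99276072-99280195), Krt15 (ENSMUSG00000054146, chr11:100022584-100026775) and Krt14 (ENSMUSG00000045545, chr11:100093988-100098490). Krt10 overlaps the antisense Gm11940, which had 62 to 108 UMIs per library, and Krt5 overlaps Gm49428 and Gm55161 with at most 8. The 100 bases before the start of each gene's canonical transcript are shown because the levels of these genes went together in pairs across the cells. For Krt15 that transcript starts at position 100026754, inside the gene as annotated, so its window overlaps the gene. The bases are written 5′ to 3′ on the minus strand, with the letters TATAA in capitals.
Krt5 (chr15:101621347-101621446): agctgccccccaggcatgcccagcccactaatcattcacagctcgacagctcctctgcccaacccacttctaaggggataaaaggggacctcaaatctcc
Krt14 (chr11:100098491-100098590): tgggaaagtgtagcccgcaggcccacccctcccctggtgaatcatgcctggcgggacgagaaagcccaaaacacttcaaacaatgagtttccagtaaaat
Krt15 (chr11:100026755-100026854): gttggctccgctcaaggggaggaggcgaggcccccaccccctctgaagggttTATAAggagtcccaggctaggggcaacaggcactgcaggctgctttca
Krt1 (chr15:101759230-101759329): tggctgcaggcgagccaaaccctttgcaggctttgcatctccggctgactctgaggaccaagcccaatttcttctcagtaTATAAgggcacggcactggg
Krt10 (chr11:99280196-99280295): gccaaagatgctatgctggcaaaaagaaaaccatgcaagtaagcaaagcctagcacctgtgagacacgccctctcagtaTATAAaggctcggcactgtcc
TATAA, searched on both strands, was present before Krt15, Krt1 and Krt10, and in 9.89% of 21618 promoters of the same length. It began 20 bases before the transcript start of Krt1, 21 bases before that of Krt10 and 48 bases before that of Krt15, where a second match on the other strand overlapped it. The longest run of bases shared by any pair was tctcagtaTATAA, 13 bases of the Krt1 and Krt10 windows, and 3 of the 21618 promoters held it. Every other pair shared at most 8 bases in a row. CACCC, a motif of KLF factors, was found before Krt14 and Krt15 and in 29.4% of promoters, and GCCNNNGGC, a motif of AP-2 factors, was found before none of the 5 and in 7.07% of promoters. These matches describe the letters of the windows and do not show that a factor binds there.

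The matrices held 19789 barcodes and 309291898 UMIs, with 3804 to 5785 barcodes per library. A UMI marks 1 captured molecule at the 3′ end of the transcript, so the counts were not scaled by gene length. Whether intronic reads were counted is not given, so comparisons of level between genes are approximate. After filters on quality and doublets, 9189 keratinocytes remained, 2845 and 2988 in Ctrl and 1565 and 1791 in TKO. They were grouped without the 5 keratins and named from other markers as basal-like (5146 cells), hair follicle-like (1909) or differentiating-like (1244). In every library all 8 basal markers and all 9 differentiating markers were seen in at least 10% of the cells of their class, while of 12 hair follicle markers all were in each Ctrl library and 10 and 11 in TKO. A cluster of 103 cells named from Merkel cell markers was kept in the sums over all keratinocytes, and its Ctrl and TKO cells differed in kind. A cluster of 787 cells was left unnamed, since differentiating markers led its score but the 1 marker among its top genes was Krt79, from the hair follicle list. TKO keratinocytes were deeper, with medians of 30073 and 28052 UMIs against 21960 and 17331 in Ctrl, so shares of cells are given after each cell was thinned to 5000 UMIs. Immune markers summed to 4.34 and 6.70 CPM (UMI counts scaled to a common total over the cells summed) in Ctrl keratinocytes and 12.1 and 14.3 CPM in TKO keratinocytes, and fibroblast markers to 833 to 1131 CPM in all 4, of which Dcn alone made up 824 to 1107 CPM. Of the targeted genes, Setdb1 fell from 67.6 and 58.3 CPM in Ctrl keratinocytes to 39.4 and 42.4 CPM in TKO (log2 change −0.64, edgeR adjusted p = 0.0444). Suv39h1 had 24.4 and 25.4 CPM against 24.8 and 20.01 CPM (adjusted p = 0.469), and Suv39h2, deleted in both groups, had 14.0 and 17.1 CPM against 22.5 and 16.1 CPM (adjusted p = 0.393). The 3′ tags do not show whether a deleted exon is missing from these transcripts.

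The effect of genotype on the 5 keratins was first assessed over all keratinocytes. Krt15 fell by 1.37 on the log2 scale in TKO, while the other basal keratins Krt5 and Krt14 were not called. The spinous keratins Krt1 and Krt10 were highest in a Ctrl library and lowest in a TKO library, but the remaining 2 libraries lay side by side. Of the 5 keratins, 1 was called at an adjusted p under 0.05, and 7.14% of all 19926 genes tested were called. The plot of levels by class shows each library.

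**Figure D1:**
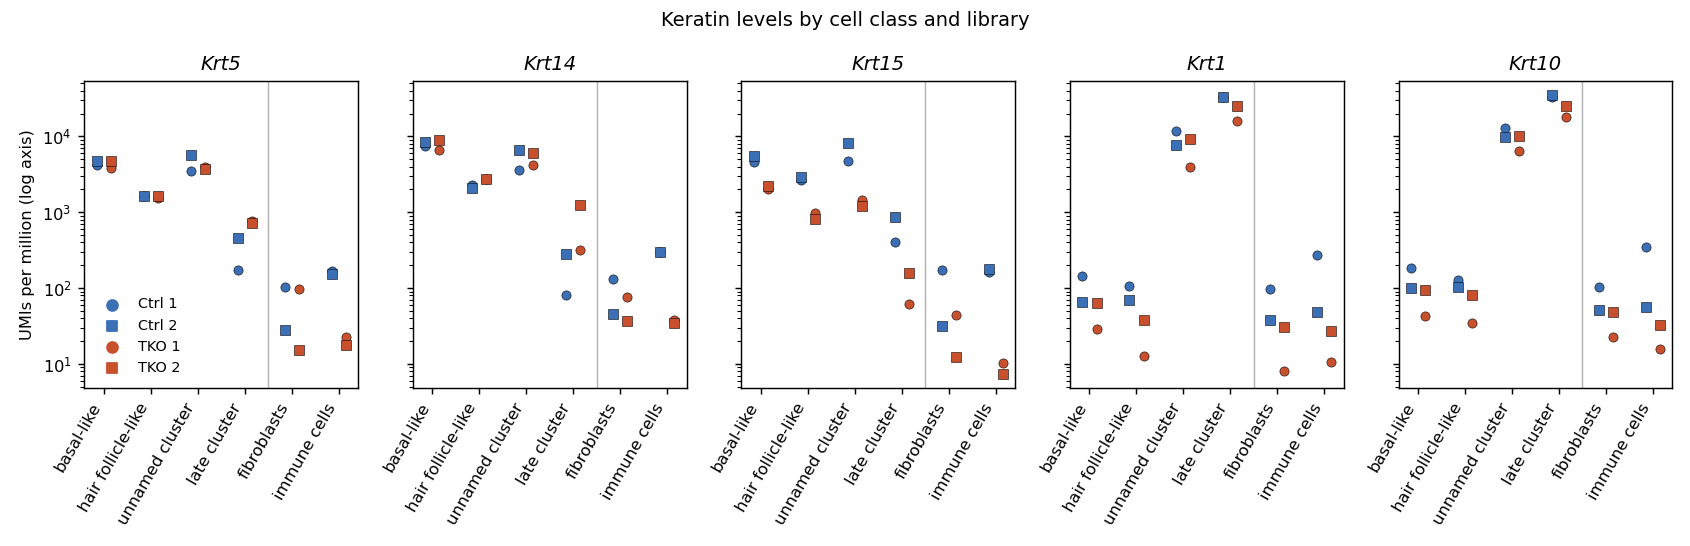
Level of each keratin in CPM (log axis) in 6 groups of cells, with 1 point per library (blue, Ctrl; red, TKO; circles, replicate 1; squares, replicate 2). Krt15 points of TKO lie below those of Ctrl in each keratinocyte class, whereas those of Krt5 and Krt14 interleave in basal-like cells.

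Krt15 had 3455 and 4652 CPM in Ctrl keratinocytes and 1618 and 1559 CPM in TKO keratinocytes. The TKO libraries lay close together and far below both Ctrl libraries. By edgeR the log2 change of −1.37 (SE 0.154) had an adjusted p of 0.0125. Without Ctrl replicate 1 the change was −1.54 but was not called (adjusted p = 0.166), in a fit that called only 2 genes in all. Among the 14 alternative settings the call held in 13. A sum over keratinocytes mixes classes, and fewer cells of a class and less RNA per cell cannot be told apart in it, so each class was examined.

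In basal-like cells, Krt15 had 4605 and 5588 CPM in Ctrl and 2015 and 2196 CPM in TKO. The groups were separated by more than their spread (log2 change −1.28, SE 0.131, edgeR adjusted p = 0.00323), and the call held in all 17 alternatives. Krt15 was the only member called there, beside 14.0% of all genes. At 5000 UMIs per cell, the Krt15 UMIs of the median basal-like cell numbered 19 and 24 for Ctrl, against 7 and 8 for TKO. Basal-like cells with no Krt15 UMI made up 3.19% and 1.21% in Ctrl and 12.9% and 13.8% in TKO, against 80.5% and 78.4% in Ctrl and 95.7% in each TKO library among immune cells at the same depth. The lower level was thus seen in the typical cell as well as in a larger share of cells without a UMI.

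Hair follicle-like cells, led by genes such as Dkk4, Lhx2 and Lgr5, had 2691 and 2932 CPM of Krt15 in Ctrl and 972 and 811 CPM in TKO. The log2 change was −1.63 here (SE 0.116, edgeR adjusted p = 0.00109, held in all 17 alternatives), and Krt15 was the only member called, beside 9.13% of all genes. The changes of Krt1 (−1.73, adjusted p = 0.0614) and Krt10 (−0.95, adjusted p = 0.145), both at low levels here, were called in 9 and 4 of 17 alternatives and ranged from −2.77 to −0.072 and from −1.70 to −0.28. The makeup of the class differed, since the Krt15-rich cluster led by Zfpm2, Igf1 and Pthlh held 19.5% and 18.8% of its cells in Ctrl but 9.69% and 6.72% in TKO. Within that cluster Krt15 went from 8723 and 8678 CPM in Ctrl to 3065 and 2631 CPM in TKO. In the other 3 clusters of the class the means went from 2304 to 1002 CPM, from 984 to 465 CPM and from 786 to 389 CPM, and the part of the makeup in the class value was not tested. In the unnamed cluster the change of Krt15 was −2.32 (SE 0.252, edgeR adjusted p = 0.0345, beside 0.651% of all genes), from 4752 and 8085 CPM to 1452 and 1208 CPM. That call was lost without Ctrl replicate 2 (−1.91, adjusted p = 0.116) or TKO replicate 1 (−2.41, adjusted p = 0.0650).

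In differentiating-like cells, Krt15 had 1002 and 2163 CPM in Ctrl and 600.0 and 630 CPM in TKO. The TKO libraries lay below both Ctrl libraries, but the Ctrl libraries differed widely and the change was not called (−1.46, SE 0.331, edgeR adjusted p = 0.105, called in 10 of 18 alternatives). None of the 5 keratins was called by edgeR in this class, beside 1.90% of all genes at the same threshold. At an unadjusted p under 0.05 there were 3, Krt15, Krt1 and Krt10, and DESeq2 called those 3. No share of all genes is given for these other counts. The change of Krt15 in differentiating-like cells minus that in basal-like cells was −0.07 (SE 0.211, adjusted p = 0.917), so no difference between the classes was detectable.

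Each of 17 keratinocyte clusters was then examined alone, the Merkel-named cluster being left out, with as few as 5 cells in a library. Krt15 was lower in both TKO libraries than in both Ctrl libraries in all 17, and 0.0703% of all genes tested, 14 genes, showed the same (0.0401% with the Merkel-named cluster counted too). Krt10 showed this order in 12 clusters, Krt1 in 10, and Krt5 and Krt14 in 3 each. Neither Krt1 nor Krt10 had both TKO libraries above both Ctrl libraries in any cluster, while Krt14 had this order in 4 and Krt5 in 3. No share of all genes was computed for these counts in part of the clusters. The mean of Krt1 was 106 CPM in Ctrl and 45.9 CPM in TKO basal-like cells, against 160 and 18.9 CPM in immune cells. The part of RNA from other cells in the counts of Krt1 and Krt10 was not tested. The clusters come from the same 4 libraries and are not separate replicates. Of the 1984 genes with a mean of at least 100 CPM, 0.454% showed the order of Krt15.

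Ranked by level in Ctrl, Krt15 was highest in the unnamed cluster (6418 ± 2357 CPM, SD, n = 2) and basal-like cells (5097 ± 694 CPM), which overlapped. It was lower in hair follicle-like cells (2812 ± 170 CPM) and lowest of the classes in differentiating-like cells (1582 ± 821 CPM). In TKO the order was basal-like (2105 ± 127.9 CPM), unnamed (1330 ± 173 CPM), hair follicle-like (891 ± 114 CPM) and differentiating-like (615 ± 21.4 CPM), with no overlap between neighbours. The unnamed cluster and basal-like cells thus overlapped in Ctrl and not in TKO, a change of order that was not itself tested. In immune cells, which do not make keratins, Krt15 had 165 and 176 CPM in Ctrl and 10.4 and 7.31 CPM in TKO, and in fibroblasts 175 and 31.9 CPM against 44.0 and 12.3 CPM. The groups were apart in immune cells and interleaved in fibroblasts. Krt5 and Krt14 were also lower in immune cells of TKO, with means of 160 and 296 CPM in Ctrl and 20.2 and 36.2 CPM in TKO. In some of these libraries a few cells held much of the Krt15, so the values do not measure free RNA alone.

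The largest basal-like cluster was not the same in every library. In both TKO libraries it was the cycling cluster led by Ube2c, Pif1 and Aurkb (281 and 308 cells, against 279 and 243 in Ctrl). Within that cluster Krt15 had 3579 and 4059 CPM in Ctrl and 1541 and 2089 CPM in TKO, listed from low to high. In the basal-like cluster with the highest Krt15, led by Myh15 and Ptprt, it had 6846 to 8075 CPM in Ctrl and 2693 to 3140 CPM in TKO. The difference in Krt15 was therefore present within clusters of either kind.

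Krt14, the type I keratin of basal cells, and Krt5, its type II partner, did not share this change. In basal-like cells Krt14 had 7504 and 8533 CPM in Ctrl and 6617 and 8987 CPM in TKO, and the TKO values lay on either side of the Ctrl values. By edgeR the log2 change of −0.04 (SE 0.170) had an adjusted p of 0.897. Krt5 had 4170 and 4720 CPM in Ctrl and 3852 and 4764 CPM in TKO, again interleaved (log2 change −0.05, SE 0.142, edgeR adjusted p = 0.853). Over all keratinocytes the changes were 0.15 for Krt14 (SE 0.172) and 0.06 for Krt5 (SE 0.146), and no alternative in basal-like cells or in all keratinocytes called either gene. At 5000 UMIs the median basal-like cell of Ctrl held 19 and 22 Krt5 UMIs and that of TKO 18 and 22, while for Krt14 these were 35 and 41 against 31 and 44. The sizes of change that these data leave possible are given by the standard errors, and a missed threshold does not show equal levels.

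In hair follicle-like cells Krt14 had 2272 and 2114 CPM in Ctrl and 2744 and 2702 CPM in TKO. Both TKO libraries lay above both Ctrl libraries, but the difference of 0.34 (SE 0.0940) was not called by edgeR (adjusted p = 0.0702) and was called in 3 of 17 alternatives, DESeq2 among them. With components left uncorrected for the library the change was −0.31. In the cluster led by Dkk4 and Nr3c2 the mean of Krt14 fell from 3875 to 3386 CPM. In the other clusters of the class it rose from 1453 to 1984, 2309 to 3587 and 2974 to 3631 CPM. Krt5 was nearly the same in all 4 libraries of this class, at 1612, 1613, 1551 and 1616 CPM. In differentiating-like cells Krt14 had 1311 and 2373 CPM in Ctrl and 2430 and 3528 CPM in TKO, and Krt5 had 960 and 1949 CPM against 2027 and 2049 CPM. Neither was called (0.60, adjusted p = 0.416, and 0.39, adjusted p = 0.591). With components left uncorrected for the library the changes were −0.45 and −0.55. The late cluster described below, low in both genes, held 344 of 492 and 224 of 320 cells of the class in Ctrl. In TKO it held 88 of 160 and 183 of 272, and the part of the makeup in these values was not tested.

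The plot of log2 changes sets the 5 keratins side by side. The genotype effect on Krt14 was 0.70 higher in differentiating-like than in basal-like cells (SE 0.176) and that on Krt5 0.55 higher (SE 0.223). Neither difference was called by edgeR (adjusted p = 0.106 and 0.292), although both had an unadjusted p under 0.05, and 1.29% of all genes were called in this comparison. Of the 14 alternatives, 5 called Krt14 and 3 called Krt5, and with components left uncorrected for the library both differences turned negative.

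**Figure D2:**
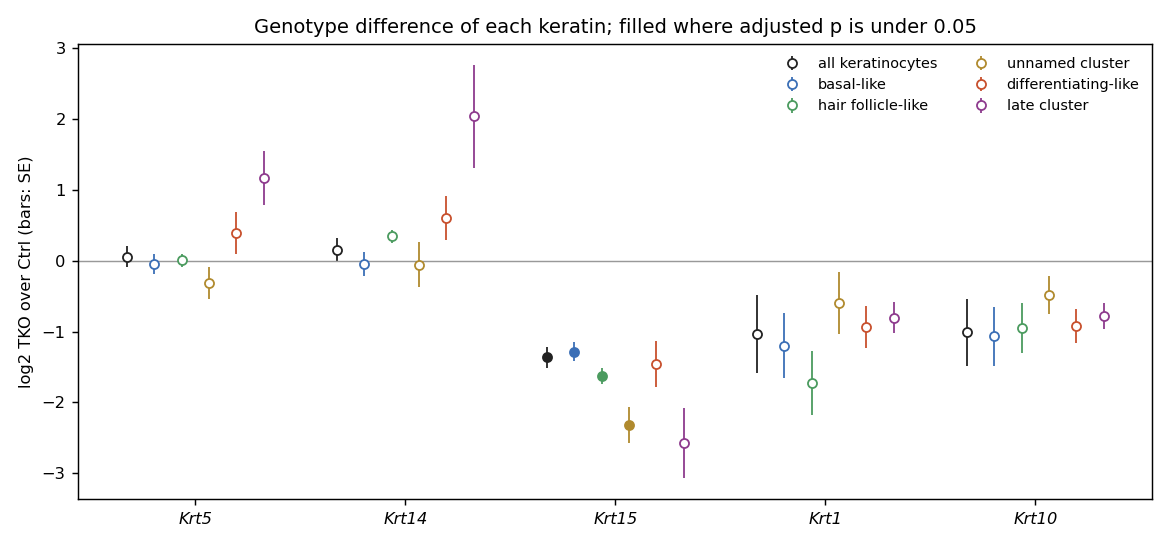
Log2 change of TKO over Ctrl with its SE for each keratin in 6 groups of cells (filled points, edgeR adjusted p under 0.05; open points, not called). Krt15 lies between −1.28 and −2.57 in every group, whereas Krt5 and Krt14 lie near 0 in basal-like cells and above 0 in the late cluster.

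In Ctrl, Krt14 was highest in basal-like cells (8018 ± 727 CPM, SD, n = 2), lower in the unnamed cluster (5124 ± 2084 CPM), and lower again in hair follicle-like (2193 ± 112 CPM) and differentiating-like cells (1842 ± 751 CPM), which overlapped. Krt5 was highest in the unnamed cluster (4600 ± 1635 CPM) and basal-like cells (4445 ± 388 CPM), which overlapped, as did hair follicle-like (1613 ± 0.349 CPM) and differentiating-like cells (1454 ± 699 CPM). In TKO the order of Krt14 was basal-like (7802 ± 1675 CPM), unnamed (5054 ± 1287 CPM), differentiating-like (2979 ± 777 CPM) and hair follicle-like (2723 ± 29.97 CPM), the last pair overlapping. Krt5 in TKO had 4308 ± 645 CPM in basal-like cells, 3815 ± 123 CPM in the unnamed cluster, 2038 ± 15.1 CPM in differentiating-like and 1583 ± 45.8 CPM in hair follicle-like cells. Only the first pair overlapped.

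Krt1 and Krt10, the spinous pair, were then examined. Over all keratinocytes Krt1 had 7286 and 4111 CPM in Ctrl and 1424 and 4149 CPM in TKO, and Krt10 had 7471 and 4520 CPM in Ctrl and 1724 and 4264 CPM in TKO. For Krt1 the TKO replicate 2 library lay above Ctrl replicate 2, and for Krt10 just below it. The log2 changes of −1.04 (SE 0.547) for Krt1 and −1.01 (SE 0.475) for Krt10 were not called (edgeR adjusted p = 0.308 and 0.260). Without TKO replicate 2 both were called, at −2.03 (adjusted p = 0.0273) and −1.83 (adjusted p = 0.0264), and without TKO replicate 1 they were −0.45 and −0.48.

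Within differentiating-like cells, Krt1 had 27376 and 25309 CPM in Ctrl and 10509.8 and 18947 CPM in TKO. Krt10 had 27629 and 26907 CPM in Ctrl and 11873 and 18973 CPM in TKO. Here both TKO libraries lay below both Ctrl libraries for each gene. The log2 changes were −0.94 for Krt1 (SE 0.293) and −0.92 for Krt10 (SE 0.245), with edgeR adjusted p = 0.199 and 0.149. Each was called in 4 of 18 alternatives, which include DESeq2, the absence of an expression filter and the fit without TKO replicate 2.

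Differentiating-like cells comprise a late cluster of 839 cells, with Ly6g6c, Sprr1b, Hrnr, Spink5 and Dsc1 among its leading genes, an early cycling cluster of 239 cells led by E2f2, Zfp750 and Pbk, and a few smaller clusters. In the late cluster Krt1 had 33208 and 33446 CPM in Ctrl and 16056 and 24879.5 CPM in TKO, and Krt10 had 33354 and 35095 CPM against 17727 and 24935 CPM. The median late cell, at 5000 UMIs, held 159 and 148.5 Krt1 UMIs for Ctrl, against 70.5 and 117 for TKO. The Ctrl libraries thus lay close together and the TKO libraries below and apart from each other. Krt5 and Krt14 had the opposite order there, at 173 and 451 CPM against 774 and 713 CPM for Krt5 and 80.2 and 281 CPM against 321 and 1232 CPM for Krt14. Immune cells, which do not make keratins, had 151 to 168 CPM of Krt5 in Ctrl and 17.8 to 22.7 CPM in TKO. Their Krt14 was 295 to 298 CPM and 34.1 to 38.3 CPM. Fibroblasts of Ctrl had 27.8 to 104 CPM of Krt5 and 45.8 to 130 CPM of Krt14. Late Ctrl cells thus held less Krt14 than immune cells, and the part of RNA from other cells was not tested. None of the 5 was called by edgeR in the late cluster, beside 2.94% of all genes at the same threshold. All 5 had an unadjusted p under 0.05, for which no share of all genes is given. DESeq2 was not run on single clusters. The log2 changes were −2.57 for Krt15 (adjusted p = 0.0501), −0.80 for Krt1 (0.124), −0.78 for Krt10 (0.0930), 1.17 for Krt5 (0.189) and 2.04 for Krt14 (0.224). Leaving out 1 library, edgeR called Krt15 in 3 of 4 fits (not without Ctrl replicate 2), Krt1 and Krt10 in 2 (without either TKO library), Krt5 in 1 (without Ctrl replicate 2) and Krt14 in 1 (without TKO replicate 1). The change of Krt14 then ranged from 0.75 to 3.14 and that of Krt5 from 0.65 to 1.96, lowest without TKO replicate 2 and without Ctrl replicate 1 and highest without Ctrl replicate 2.

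In the early cycling cluster, 2 of the 5 keratins fell, beside 2.70% of all genes called. Krt15 went from 4309 and 6164 CPM in Ctrl to 1529 and 2138 CPM in TKO (log2 change −1.55, edgeR adjusted p = 0.00984). Krt10 went from 3805 and 4035 CPM to 2427 and 2698 CPM (−0.66, adjusted p = 0.0182), while Krt1 had 2855 and 2485 CPM against 1528 and 2499.9 CPM and was not called (−0.45, adjusted p = 0.330). Without either Ctrl library no gene at all was called in this small cluster, and without TKO replicate 1 the adjusted p was 0.0265 for Krt15 and 0.0607 for Krt10. Without TKO replicate 2 edgeR called all 5 lower, Krt1 (−0.88, adjusted p = 0.00484), Krt5 (−0.58, adjusted p = 0.0431) and Krt14 (−0.57, adjusted p = 0.0130) included, while without TKO replicate 1 these changes were −0.11, 0.071 and 0.33. The 3 single-cluster comparisons, that of the unnamed cluster included, were added after the data had been seen.

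Among classes, Krt1 and Krt10 spanned the widest range of the 5. In Ctrl, Krt1 had 26342 ± 1462 CPM (SD, n = 2) in differentiating-like cells and 9785 ± 2920 CPM in the unnamed cluster, against 106 ± 56.1 CPM in basal-like and 87.9 ± 27.1 CPM in hair follicle-like cells, which overlapped. Krt10 had 27268 ± 511, 11299 ± 2133, 143 ± 57.9 and 115 ± 19.4 CPM in the same order, the last pair again overlapping. The low values in basal-like cells are set beside those of cells that do not make these keratins. Krt1 had 145, 65.9, 29.1 and 62.7 CPM in basal-like cells of Ctrl 1, Ctrl 2, TKO 1 and TKO 2, and 271, 48.6, 10.8 and 27.0 CPM in immune cells and 98.2, 38.2, 8.02 and 30.3 CPM in fibroblasts of the same libraries. The immune value of Ctrl 1 was uneven over cells, with a variance 26.03 times the mean at 5000 UMIs. Krt10 had 183, 102, 42.7 and 92.9 CPM in basal-like cells and 347, 56.6, 15.6 and 32.1 CPM in immune cells. The basal-like changes of −1.20 for Krt1 and −1.07 for Krt10 were not called (edgeR adjusted p = 0.138 and 0.140). Each was called in 5 of 17 alternatives, among them the fit without TKO replicate 2 (−1.89 and −1.77, adjusted p = 0.0131 and 0.00557), and without Ctrl replicate 1 they were −0.53 and −0.59. Without TKO replicate 1 they were −0.73 and −0.60, and the part of RNA from other cells in them was not tested.

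The joint distribution of basal and spinous keratins was next followed cell by cell. At 5000 UMIs per cell, keratinocytes of all 4 libraries formed a large group with Krt5 and Krt14 alone, a group with Krt1 and Krt10 alone, and a bridge of cells with both pairs. A cell was counted as positive for a pair when its summed UMIs exceeded a limit set by the UMIs of non-keratinocytes, the highest 95th percentile over the libraries. That limit was 3.15 UMIs for Krt5 + Krt14 and 3 UMIs for Krt1 + Krt10. At least 1 UMI of Krt1 + Krt10 was present in 57.5% and 37.1% of non-keratinocytes in Ctrl and in 14.6% and 26.6% in TKO, so a single UMI does not mark a spinous cell.

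**Figure D3:**
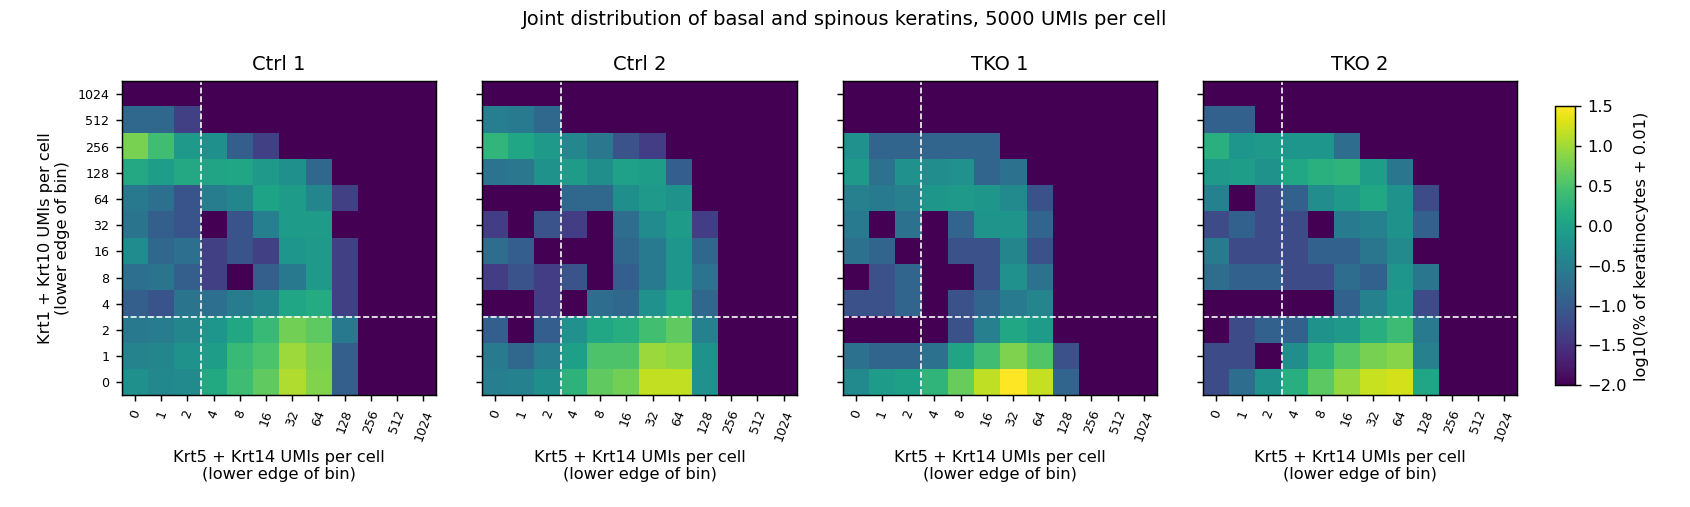
Heat maps, 1 per library, of Krt5 + Krt14 UMIs (x axis) against Krt1 + Krt10 UMIs (y axis) in keratinocytes thinned to 5000 UMIs, coloured by the percent of keratinocytes on a log10 scale, with dashed lines at the UMI limits. Most cells lie at high Krt5 + Krt14 below the spinous limit, and a bridge leads to cells rich in Krt1 + Krt10 in each library.

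Cells with spinous keratins made up 31.7% (893 of 2821, 95% Clopper-Pearson interval 29.9 to 33.4) and 18.8% (554 of 2949, 17.4 to 20.2) of keratinocytes in Ctrl. In TKO they made up 12.7% (199 of 1561, 11.1 to 14.5) and 22.8% (406 of 1784, 20.8 to 24.8). The libraries of each group differed by more than their counting error and the groups overlapped (25.2% ± 9.10 against 17.8% ± 7.08, SD, n = 2, exact permutation p = 0.667, two-sided, where 0.333 is the smallest p that 2 against 2 allows). Before thinning, the shares were 66.2% and 35.6% in Ctrl and 22.2% and 40.9% in TKO. The libraries ranked by this share in the order of their Krt1 level over all keratinocytes, and the sort for α6 integrin favours basal cells and can set these shares.

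Cells with both pairs above their limits made up 15.7% and 12.5% of keratinocytes in Ctrl and 8.26% and 15.7% in TKO. The means of 14.1% ± 2.26 and 12.0% ± 5.25 (SD, n = 2) overlapped (exact permutation p = 0.667). Leaving out TKO replicate 1 turned the difference from −2.13 to 1.59 percentage points. Of the cells with spinous keratins, those without basal keratins made up 50.4% and 33.4% in Ctrl and 35.2% and 31.0% in TKO (exact permutation p = 0.667, n = 2 per group). This last difference changed sign under some other limits and with doublets kept. The plot of shares gives each library with its interval. Cells with basal keratins alone made up 64.6% and 79.1% in Ctrl and 84.6% and 76.1% in TKO, and cells with neither pair 1.12% to 3.72%.

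**Figure D4:**
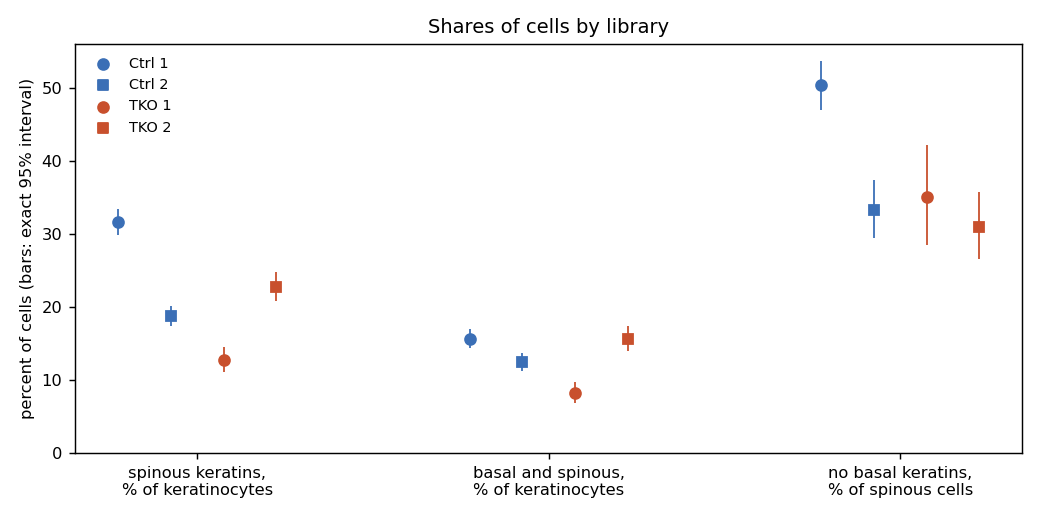
Shares of cells, in percent, per library with exact 95% intervals: cells with spinous keratins, cells with both pairs, and spinous cells without basal keratins. Ctrl replicate 1 (31.7%) and TKO replicate 1 (12.7%) are the extremes of the first share, with the other libraries between them.

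The bridge cells were found mainly in the unnamed cluster (55.5% and 52.0% of them in Ctrl, 43.4% and 46.8% in TKO) and in differentiating-like cells (20.1% and 31.7% in Ctrl, 51.9% and 44.6% in TKO). Their median doublet scores of 0.0204 to 0.0341 were, library by library, at or below those of cells with basal keratins alone, 0.0306 to 0.0411. Barcodes with the highest scores had already been left out, and whether bridge cells are doublets was not tested. Before thinning, the median bridge cell was deeper than the median cell with basal keratins alone. The values were 24095 against 21137 for Ctrl 1 and 20274 against 16894 for Ctrl 2. For TKO 1 they were 37494 against 29910, and for TKO 2 34369 against 26673.5. Cells with spinous keratins alone lay above bridge cells in Ctrl and below them in TKO. Bridge cells carried Krt15 in Ctrl, with means of 27.4 and 37.5 UMIs, above the 20.6 and 25.2 UMIs of cells with basal keratins alone. In TKO the bridge cells had 4.22 and 6.56 Krt15 UMIs, below the 9.49 and 9.62 UMIs of cells with basal keratins alone. The order of these categories was thus opposite in the Ctrl and TKO libraries. It was not tested, since the categories come from cells of the same libraries.

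Along rising Krt1 + Krt10, Krt15 took a different course in Ctrl and TKO. In cells with 0 to 2 spinous UMIs the mean Krt15 count was 19.0 and 24.2 in Ctrl and 9.17 and 9.41 in TKO. With 3 to 9 spinous UMIs it was 28.0 and 39.5 in Ctrl and 11.0 and 15.04 in TKO, higher than in the first bin in every library. With 30 to 99 spinous UMIs it was 26.1 and 44.3 in Ctrl, still above the first bin, and 3.83 and 6.17 in TKO, already below it. From 100 up to 300 spinous UMIs the Ctrl means were 12.6 and 17.9 and the TKO means 1.12 and 2.45, and at 300 and more 1.60 and 2 against 0.333 and 0.208. The last bin of TKO replicate 1 holds only 6 cells.

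Krt5 + Krt14 were followed along the same bins. In the first bin the Ctrl means were 45.8 and 51.9 UMIs and the TKO means 44.5 and 55.5 UMIs. At 30 to 99 spinous UMIs it was 42.1 and 59.1 in Ctrl and 25.4 and 46.6 in TKO, where TKO replicate 2 lay between the Ctrl libraries and TKO replicate 1 below them. As for Krt15, both TKO libraries were below their own first bin here. Ctrl replicate 1 was below its first bin as well, unlike for Krt15. From 100 up to 300 spinous UMIs the pair had dropped to 10.1 and 19.5 in Ctrl and 8.66 and 16.1 in TKO. The Ctrl and TKO libraries thus overlapped in this bin for Krt5 + Krt14 and not for Krt15. At 300 and more, a mean of 0.857 and 1.17 remained in Ctrl and of 0.833 and 3.17 in TKO.

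**Figure D5:**
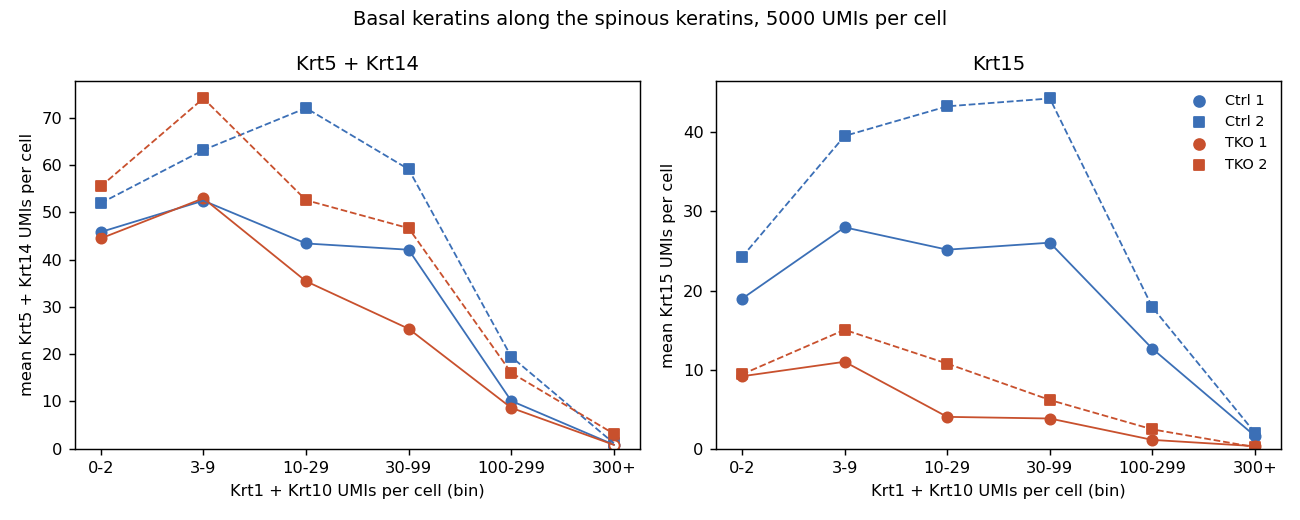
Mean UMIs per cell at 5000 UMIs of Krt5 + Krt14 and of Krt15, by bin of Krt1 + Krt10 UMIs, with 1 line per library (blue, Ctrl; red, TKO). The Krt5 + Krt14 values of the 2 groups overlap in every bin, while both TKO lines of Krt15 lie below both Ctrl lines in every bin.

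The balance between keratins was measured as a ratio within each library, for Krt15 against Krt14, both of type I, and for the 2 pairs of partners, which does not depend on normalisation. For every Krt14 UMI, keratinocytes held 0.741 and 0.781 Krt15 UMIs in the Ctrl libraries, against 0.303 and 0.238 in TKO. The log2 ratio of Krt15 to Krt14 was −0.39 ± 0.0544 in Ctrl and −1.90 ± 0.246 in TKO (SD, n = 2), a difference of −1.50 with an exact permutation p of 0.333, the smallest this design allows. The difference was −1.22 in basal-like, −1.97 in hair follicle-like, −1.99 in differentiating-like cells and −2.24 in the unnamed cluster. Krt14 to Krt5 (0.70 ± 0.00436 against 0.79 ± 0.111) and Krt10 to Krt1 (0.09 ± 0.0712 against 0.16 ± 0.167) moved by at most 0.09 over all keratinocytes (exact permutation p = 0.333 and 0.667, n = 2 per group). In hair follicle-like cells Krt14 to Krt5 moved by 0.34 and Krt10 to Krt1 by 0.85 (exact permutation p = 0.333 for each, n = 2 per group). The latter rests on Krt1 at 12.7 and 38.4 CPM in TKO, against 10.8 and 27.0 CPM in immune cells of the same libraries, and is not shown to be expression by these cells. In the unnamed cluster the differences were 0.24 for Krt14 to Krt5 and 0.19 for Krt10 to Krt1, with overlapping libraries.

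Across single keratinocytes of Ctrl replicate 1, as a description over 2821 cells that share library and depth, log counts of Krt5 and Krt14 had a Pearson correlation of 0.859 and those of Krt1 and Krt10 of 0.952. Krt5 and Krt15 had 0.756, and Krt14 and Krt10 had −0.653. Ctrl replicate 2 gave 0.813, 0.940, 0.734 and −0.517 for the same pairs.

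Because that loss is described as mosaic, TKO cells were also split by a set of 6 transcripts near absent in Ctrl keratinocytes, a set chosen with these data known. At least 2 UMIs of it at 5000 UMIs per cell were found in 46.1% and 33.0% of TKO keratinocytes and in 1 and 0 Ctrl cells. Among basal-like cells, Krt15 averaged 8.56 UMIs in cells with these transcripts and 12.0 without in TKO replicate 1, and 10.7 and 12.5 in TKO replicate 2. Ctrl basal-like cells averaged 22.7 and 28.99 Krt15 UMIs. Both kinds of TKO cell therefore held fewer Krt15 UMIs than Ctrl cells, and a cell without detected transcripts of the set may still have lost the enzymes. Krt1 and Krt10 in keratinocytes with the set were 0.456 and 0.492 of the level without it in TKO replicate 1 and 0.786 and 0.812 in TKO replicate 2, whereas Krt5 and Krt14 stood at 0.940 to 1.05. These ratios pool the classes. In TKO replicate 2, Krt1 and Krt10 went the other way in hair follicle-like cells (1.79 and 1.91), as did Krt10 in basal-like cells (1.12), where both genes are low. In differentiating-like cells of TKO replicate 1 (76 cells with the set) they were 1.47 for Krt5, 2.21 for Krt14 and 2.04 for Krt15, the last opposite to basal-like cells, and in TKO replicate 2 they were 0.927, 1.07 and 1.0002.

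Other genes of the same programmes were examined from lists, beside a median log2 change of −0.02 over all genes in keratinocytes. Of 22 transcription factors linked to keratin transcription, 6 fell and none rose in keratinocytes (median −0.53), where 7.14% of all genes were called, and 12 fell in hair follicle-like cells (median −0.75), where 9.13% were. Pou3f1, a POU factor of suprabasal epidermis, went from 119 and 124 CPM in Ctrl to 17.9 and 31.8 CPM in TKO (−2.30, edgeR adjusted p = 0.0161). Barx2 (−1.41, adjusted p = 0.0208), Ovol1, a zinc finger factor that promotes exit from the basal state (−0.90, adjusted p = 0.0329), and the AP-2 factor Tfap2c (−0.76, adjusted p = 0.0217) also fell. No factor of the list was called higher by edgeR or DESeq2 in keratinocytes, and none had an unadjusted p under 0.05 in that direction.

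Of 19 other keratin genes tested in keratinocytes, 3 rose and 1 fell, beside 7.14% of all genes called. Krt6a, a type II keratin of stressed epidermis, was near absent in Ctrl (0.234 and 0.436 CPM) and had 23.0 and 82.6 CPM in TKO (7.32, edgeR adjusted p = 0.0131), and Krt6b rose by 7.13 (adjusted p = 0.0304). Krt6a and Krt6b are close copies, so counts could be split between them. Krt7, a type II keratin of simple epithelia, rose by 2.06 (adjusted p = 0.0269). Krt8 fell by 4.15 on the log2 scale (adjusted p = 0.0208), from 16.2 and 13.2 CPM to 0.343 and 1.31 CPM, and it is also a marker of Merkel cells, whose markers in the cluster named from them summed to 18983 and 23274 CPM in Ctrl and 45.9 and 107 CPM in TKO. Even in TKO, Krt6a stayed far below each of the 5 members. In hair follicle-like cells 2 of 11 fell and none rose by edgeR or DESeq2, or at an unadjusted p under 0.05, beside 9.13% of all genes called. In differentiating-like cells, beside 1.90% of all genes, 4 of 10 tested keratins rose and none fell by edgeR or DESeq2, with an unadjusted p under 0.05 for 2 in that direction.

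Of 14 other spinous layer genes, 1 fell and none rose in keratinocytes (median −0.21). The gene was Calml3, a calmodulin-like protein of differentiating epithelium (−3.19, edgeR adjusted p = 0.0274). Of 14 genes of basal adhesion and progenitor state, 1 fell, Dlk2 (−0.73, adjusted p = 0.0421), and none rose (median −0.11). A count of 1 in 14 is close to the 7.14% of all genes called. In hair follicle-like cells, where 9.13% of all genes were called, 4 of 12 spinous layer genes (median −0.98) and 4 of 14 basal genes fell (median −0.25), and in basal-like cells, beside 14.0%, 3 of 14 basal genes fell. As given above, Krt1 and Krt10 were lower in TKO also in cells that do not make them. The part of RNA from other cells in the counts of spinous layer genes was not tested. Among 10 granular layer genes and 13 genes of desmosomes, the junctions to which keratin filaments attach, edgeR called none in keratinocytes. At an unadjusted p under 0.05 there was 1 granular gene, and there were 3 desmosome genes, 1 of which DESeq2 called. In hair follicle-like cells 6 of the 13 desmosome genes fell (median −0.65), beside 9.13% of all genes called. In basal-like cells 1 rose and 1 fell, beside 14.0% of all genes, where DESeq2 called 4 lower and 6 were lower at an unadjusted p under 0.05. In differentiating-like cells 1 rose, beside 1.90% of all genes. Of 12 genes of G2 and mitosis, 4 rose in keratinocytes, with Ube2c at 0.87 (adjusted p = 0.0163), and cells with at least 5 UMIs of these genes made up 36.4% and 30.8% of the cells with basal keratins alone in Ctrl and 53.3% and 47.6% in TKO.

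Finally, the genes whose levels most resembled each keratin were listed over 32 points, each a keratinocyte cluster with at least 30 cells in a Ctrl library, the Merkel-named cluster in Ctrl 1 among them (7077 genes, Pearson correlation of log2 CPM), as a description. Krt1 and Krt10 resembled each other at 0.992 and Krt5 and Krt14 at 0.957, while Krt15 stood at 0.887 with Krt5 and 0.737 with Krt14. The closest other genes were Cavin3 (0.922) for Krt5, Htra1 (0.944) for Krt14, Gas1 (0.923) for Krt15, Elovl4 (0.976) for Krt1 and Metrnl (0.969) for Krt10. Next came Depdc7 and Rps6ka1 for Krt5, Pdlim1 and Zfp503 for Krt14, Ehd2 and Hotairm1 for Krt15, and Them5 and Serpinb12 for both Krt1 and Krt10. Of these 13 genes, Gas1 alone was called in keratinocytes, 1 gene beside 7.14% of all genes, with a log2 change of −0.78 (edgeR adjusted p = 0.0230). It was also lower in basal-like (−0.73, adjusted p = 0.0149), differentiating-like (−1.17, adjusted p = 0.0495) and hair follicle-like cells (−1.01, adjusted p = 0.00941). Called in single classes, beside 9.13% and 14.0% of all genes, were Cavin3 (−1.66, adjusted p = 0.00827), Ehd2 (−0.61, adjusted p = 0.0426) and Depdc7 (0.63, adjusted p = 0.0332) in hair follicle-like cells and Serpinb12 (−2.08, adjusted p = 0.0293) in basal-like cells.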

How the data were processed

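The authors prepared 10x Genomics 3′ v3 libraries and deposited unnormalized UMI counts for every gene in each filtered barcode of a library, written by Cell Ranger 7.1.0 per the file headers (the methods name another version) on GRCm39. The annotation release, the strand setting and the use of intronic reads are not given in the sources used here. Barcodes with at least 2000 genes and under 10% mitochondrial UMIs were kept, the barcodes with the highest doublet scores were left out at a rate rising with barcode number, and 2 to 12 barcodes were shared by any pair of libraries. Components were aligned across libraries and cells clustered (scanpy 1.11.5, 2000 variable genes, 30 components, 20 neighbours, Leiden resolution 1). Keratinocytes were clustered again without the 5 keratins and without genes called between the genotypes.

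Counts were summed per library and class and tested across the 4 libraries by the quasi-likelihood test of edgeR (version 4.0.16 in R 4.3.3, TMM factors, default expression filter, genotype as the only term). All adjusted p-values come from it, after Benjamini-Hochberg adjustment over all genes tested, unless DESeq2 (1.42.0) is named. The shares of all genes called are likewise those at an adjusted p under 0.05 by edgeR. CPM are relative to all UMIs of the class. Shares and ratios were compared by the exact two-sided permutation test. Intervals cover counting error only. The tests were checked on simulated data.

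The members and gene lists were chosen with earlier results of these data known. Named genes were all 5 members, up to 4 called genes of each list with the largest change in keratinocytes, and the 3 genes most alike in level to each member (clusters of at least 30 cells, genes with a mean of at least 20 CPM).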

Additional observations from a re-analysis of the deposited data

Results flagged for a closer look

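Among the named genes, the genotype effect of 3 differed between classes by the interaction test, which called 228 of 17714 genes (1.29%) (edgeR, library as a block, differentiating-like minus basal-like cells). Krt6a rose in both classes, by 3.0 on the log2 scale in basal-like cells (adjusted p = 0.0444) and by 9.20 in differentiating-like cells (adjusted p = 0.00293), a difference of 6.10 (SE 0.703, adjusted p = 0.0146). Krt7 rose by 2.70 (adjusted p = 0.00354) and 5.32 (adjusted p = 0.0286), a difference of 2.59 (SE 0.458, adjusted p = 0.0471). Pou3f1 fell by 1.74 on the log2 scale in basal-like cells (adjusted p = 0.00917) and by 2.46 in differentiating-like cells (adjusted p = 0.0242), a difference of −0.73 (SE 0.131, adjusted p = 0.0484). With a higher minimum of genes per cell the test called no gene, so these 3 calls end there. None of the 5 basal and spinous keratins was called in this test, in which 2 of them, Krt5 and Krt14, had an unadjusted p under 0.05 and DESeq2 was not run.

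Basal keratins stood out in a small cluster that has no comparison of its own in the report, where it enters the sums and shares over all keratinocytes, the count over all 18 clusters and, for Ctrl 1, the comparison of levels between genes. The cluster named from Merkel cell markers held 33 and 23 cells in Ctrl and 29 and 18 in TKO. Its Merkel markers summed to 18983 and 23274 CPM in Ctrl but to 45.9 and 107 CPM in TKO, where 3 and 5 of the 8 markers were at 0, so the label holds for the Ctrl cells only. Krt5 averaged 2732 CPM in the TKO cells (2854 and 2609 CPM) against 689 and 207 CPM in Ctrl. Krt14 averaged 3720.3 CPM in the TKO cells (3724 and 3716 CPM) against 709 and 199 CPM in Ctrl, whereas Krt15 had 1527 and 359 CPM in Ctrl and 49.3 and 136 CPM in TKO. The cells of the 2 groups differ in kind, and no test was run between them.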

How the results depend on the processing

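Krt15 kept its direction in every class under every alternative run, and where it was called lost the call in keratinocytes without Ctrl replicate 1, in the early cycling cluster without either Ctrl library and in the unnamed cluster without Ctrl replicate 2 or TKO replicate 1. The number of the 5 keratins called was 1 in keratinocytes (0 to 3 leaving out 1 library, 0 without Ctrl replicate 1), 1 in basal-like cells (1 to 3), 0 in the differentiating-like class (0 to 3, with DESeq2 3), 1 in hair follicle-like cells (1 to 3, with DESeq2 2) and 0 in the difference between classes (0 to 2). With no expression filter the numbers were 3 in basal-like, 4 in differentiating-like and 4 in hair follicle-like cells and 2 in the difference between classes. With doublets kept they were 3, 1 and 2 in these classes, with uncorrected components 3, 1 and, in the difference, 2, at Leiden resolution 0.5 1 in differentiating-like and 2 in hair follicle-like cells, at resolution 2 1 and 3, and at 5000 UMIs per cell 3 in hair follicle-like cells and 1 in the difference. With the unnamed cluster counted in, an alternative added after seeing the data, differentiating-like cells had 1. In all, the cause was not tested.

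Counting the Merkel-named cluster too, an alternative added after seeing the data, Krt15 was lower in all 18 clusters and Krt14 and Krt5 higher in 5 and 4. Replicate numbers share only a number: deviations of same-numbered libraries correlated at −0.25. With a replicate block the pairing called 2 keratins in hair follicle-like cells and 748, 2001, 23 and 1446 genes in keratinocytes, basal-like, differentiating-like and hair follicle-like cells, against 1423, 2478, 253 and 1418. The crossed replicate block, added after seeing the data, called 3 keratins in each and 3668, 4230, 1196 and 1608 genes.

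Small log2 values changed sign. Krt5 was −0.020 in keratinocytes and −0.13 in hair follicle-like cells at 5000 UMIs, −0.11 with doublets kept, −0.058 at resolution 0.5, −0.019 at resolution 2 and −0.058 with the unnamed cluster in differentiating-like cells, and −0.011 with no filter and −0.031 at resolution 0.5 in hair follicle-like cells. With uncorrected components Krt5 was −0.55, −0.30 and −0.39 and Krt14 −0.45, −0.31 and −0.38 in differentiating-like cells, hair follicle-like cells and the difference, and Krt14 was 0.00055 in basal-like cells at resolution 2. Leaving out 1 library, Krt5 ranged from −0.082 to 0.22 in keratinocytes, −0.24 to 0.12 in the basal-like class, −0.020 to 0.93 in the differentiating-like class and −0.039 to 0.052 in hair follicle-like cells, −0.58 to 0.071 in the early cycling cluster and −0.63 to 0.074 in the unnamed cluster. Krt14 ranged from −0.017 to 0.32 in keratinocytes, −0.32 to 0.18 in basal-like cells, −0.57 to 0.33 in the early cycling cluster and −0.41 to 0.41 in the unnamed cluster. In the difference between classes Krt15 ranged from −0.44 to 0.31, Krt1 from −0.26 to 0.70 and Krt10 from −0.19 to 0.55. The difference in the share of cells with both pairs ranged from −5.84 to 1.59 points, the log2 ratio of Krt10 to Krt1 from −0.047 to 0.19 and Krt5 + Krt14 from 100 up to 300 spinous UMIs from −7.09 to 2.24 UMIs around −2.43. The difference of −8.79 points in spinous cells without basal keratins became 5.44 with limits at the 99th percentile, 2.16 with a limit of 50 UMIs and 1.81 with doublets kept.

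Calls over all genes moved by over 1.5 times in keratinocytes (2643 with DESeq2, 651 with no filter, 882 at 5000 UMIs, 2 to 1868 leaving out 1 library), in basal-like (1400 at 5000 UMIs, 729 to 3016), differentiating-like (563 with DESeq2, 1607 with no filter, 43 with a higher minimum of genes per cell, 163 at resolution 0.5, 154 to 1151) and hair follicle-like cells (2155 with no filter, 814 at 5000 UMIs, 873 with uncorrected components, 2230.0 at resolution 2, 462 to 1666). The difference between classes moved from 228 to 1302 with no filter, 39 at resolution 0.5, 103 at resolution 2, 139 with uncorrected components, 56 with keratins kept in clustering, 39 with the unnamed cluster, 0 by edgeR with a higher minimum of genes per cell and 80 to 1010.0 leaving out 1 library. The lowest counts came without Ctrl replicate 1 (2 in keratinocytes, 154 in differentiating-like cells, 80 in the difference) or Ctrl replicate 2 (729 in basal-like, 462 in hair follicle-like cells). With 2 libraries a group no permutation p can go below 0.333.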

Other observations

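Krt15 was also found in a few cells outside the keratinocytes. In the cluster named from muscle markers, 6 cells (4 Ctrl and 2 TKO) held 3366 of its 3379 Krt15 UMIs, or 99.6%. Their median levels were 23191 CPM of Krt15, 17040.3 CPM of Psca, 6706 CPM of Krt7, 3911 CPM of Krt19, 3821 CPM of Krt4 and 785 CPM of Krt13, keratins of internal and simple epithelia among them, against 156 CPM of Krt5 and 31.98 CPM of Krt14. They were chosen after their values had been seen and are too few to compare between the genotypes.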
